A study of Homo sapiens with 12 samples.

Results

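The comparison described here set the day 24 cerebral organoids (COs) labelled as c-JUN knockout (KO) against those of wild type (WT). Of the 12 libraries of the series, the 6 of day 24 entered it, chosen by the line and the day in their titles. They were 2 WT libraries, 2 of KO#2 and 2 of KO#10. WT was the unedited human embryonic stem cell line H1, and KO#2 and KO#10 were H1 clones in which CRISPR-Cas9 had been directed at c-JUN. Each KO group is thus 1 clone, and each library held RNA pooled from 3 to 4 COs, so that no library was a single organoid. The COs grew without guidance toward a brain region, from embryoid bodies set in Matrigel, and the 6 day 12 libraries of the same lines were used only to place the day 24 values. Total RNA was sequenced after removal of ribosomal RNA. The deposited value is a whole-number score for each of 10976 genes, and a gene was tested when its score reached 10 in at least 2 of the 6 libraries, which left 9289 genes. Gene coordinates below are those deposited with the scores. For 10975 of the 10976 genes they overlap the interval of the same gene in GENCODE 29 on GRCh38.

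c-JUN is a subunit of AP-1, a family of transcription factor dimers that respond to growth factors and stress and that take part in neuronal outgrowth and in epithelial and mesenchymal programs. Unguided COs start as pluripotent aggregates, turn into neuroepithelium, and then form progenitors and early neurons of several brain regions, while cells of other germ layers can persist beside them. In the dorsal forebrain, the cortical hem at the midline secretes WNT ligands, and cortical progenitors next to it express DMRT and EMX genes.

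Several properties of the libraries bear on every value. The scores were not read counts: each library had a median of 17, a highest score of 5585 and 269 to 271 distinct values, so that neither the depth nor a counting error can be derived from them. On log2 (score + 1), KO#2 replicate 2 and KO#10 replicate 2 were the closest pair (Euclidean distance 27.4, r across genes 0.978), closer than the 2 WT libraries (39.8), the 2 KO#2 libraries (43.2) or the 2 KO#10 libraries (59.8). KO#10 replicate 1 was the KO library nearest WT, at 55.5 and 69.1 from the WT libraries against 82.4 to 99.2 for the other 3 KO libraries. Summed scores moved with this order for some sets of marker genes and not for others. AFP and APOA1, the markers of endoderm and yolk sac with a value, summed to 5752 and 5734 in WT, 50 and 1 in KO#2, 944 in KO#10 replicate 1 and 2 in KO#10 replicate 2, while the other 3 markers, GATA4 and FOXA2 among them, had no value here. The 5 epithelial markers summed to 591 and 776 in WT, 64 and 39 in KO#2, 240 in KO#10 replicate 1 and 45 in KO#10 replicate 2, and all 5 were called lower. The 5 neuronal markers summed to 230 and 123 in WT, 835 and 886 in KO#2, 275 in KO#10 replicate 1 and 530 in KO#10 replicate 2, with 2 of the 5 called higher. The 5 markers of neural progenitors were detected in all libraries but did not follow this order. They summed to 331 and 130 in WT, 295 and 337 in KO#2, 188 in KO#10 replicate 1 and 381 in KO#10 replicate 2. The labels name the source as embryonic stem cells, and the 5 pluripotency markers summed to 164 and 474 in WT and to 17 to 25 in KO. In KO#10 replicate 1 they summed to 18, within the range of the other KO libraries. In bulk RNA, fewer cells of a type and less RNA per cell cannot be told apart, and the part of cell composition in the differences below was not tested.

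JUN itself (ENSG00000177606, chr1:58776845-58784048) was higher, not lower, where the label said KO. Its scores were 13 and 15 in WT, 39 and 39 in the KO#2 pair and 29 and 32 in the KO#10 pair, where replicate 1 had the 29. All 4 KO libraries lay above both WT libraries, by 1.25 on the log2 scale (SE 0.17, adjusted p = 0.0184, limma with Benjamini-Hochberg adjustment). Whether the transcripts carry the edit cannot be read from a score, so every direction below rests on the labels. The study reports that its KO clones lacked c-JUN protein by western blot and c-JUN mRNA by RT-qPCR, the latter in COs as well. The JUN scores here differ from that RT-qPCR result. The study's checks were not analysed here, and the cause of the difference was not tested. The call of JUN was made in 2 of the 6 fits that left out a library. The 250 bases before its RefSeq start site are shown because this promoter is known to bind AP-1 itself. The capitals mark TGACATCA, a variant of the AP-1 letters that starts 67 bases before the start site (GRCh38.p14, chr1:58784048-58784297, minus strand).
JUN: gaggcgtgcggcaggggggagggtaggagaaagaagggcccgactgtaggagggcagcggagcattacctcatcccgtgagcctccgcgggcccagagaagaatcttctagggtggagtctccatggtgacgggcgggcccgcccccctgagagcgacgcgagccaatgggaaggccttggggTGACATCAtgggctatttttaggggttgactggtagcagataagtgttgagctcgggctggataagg

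Calls required an adjusted p under 0.05 together with a difference of 2-fold or more on log2 (score + 1), a scale that understates the change of genes with low scores. By this rule 392 genes (4.22% of those tested) rose in KO and 352 (3.79%) fell, 8.01% in all. For comparison, all 4 KO libraries lay above both WT libraries in 22.2% of all tested genes and below both in 21.8%. A call over so few libraries makes this separation likely. Statements below that the groups did not overlap therefore describe called genes and add nothing to their calls. The counts depended on single libraries. They rose to 722 higher and 624 lower without KO#10 replicate 1, and fell to 145 and 118 without KO#2 replicate 1, to 12 and 11 without WT replicate 1, to 1 and 1 without WT replicate 2, to 5 and 10 without KO#2 replicate 2, and to 6 and 17 without KO#10 replicate 2. Of the 744 called genes, 2 were called in all 6 of these fits, NRN1 among the higher and RPS15A among the lower genes, where a gene that failed the score limit in a fit counts as not called. RPS15A was singled out after its values were seen. For each list described below, the count of called genes in either direction fell to 0 in at least 1 of these fits. The score limit also bears on direction. A gene below 10 in all 4 KO libraries was tested only if both WT libraries reached 10, so its side was fixed by the filter. Genes below 10 in both WT libraries were likewise tested only through KO libraries. List counts and medians include such genes, ZFP42, ESRP1, APOB and HNF4A among them. Calls were also made under 9 other settings of the filter, the pseudocount and the model, and genes that lost their call there are named with their group. The lists leave out 70 genes that the study labels in its day 24 heat map or volcano plot or that had been described before, of which 68 were tested, 26 were higher and 35 lower, so that list counts do not cover those genes.

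The letters of an AP-1 element, TGACTCA or its reverse complement TGAGTCA, were searched in the RefSeq promoters, from 250 bases before to 50 bases after each start site. They were present in 7 of the 306 higher genes with a promoter in the table (2.29%), in 8 of 268 lower genes (2.99%), in 175 of 7634 tested genes (2.29%) and in 1344 of all 27305 promoters (4.92%). The CRE letters TGACGTCA were present in 2.61% of the higher genes and 2.61% of the lower genes, against 3.88% of the tested genes and 1.98% of all promoters. TGACATCA or TGATGTCA, the form in the JUN promoter, was present in 1.63% and 0.746% of the higher and lower genes, 1.35% of the tested genes and 2.71% of all promoters. The promoters of the 2 higher and the 2 lower genes with the largest change and AP-1 letters before the start site are given as examples, with those letters in capitals. PCSK1N, which encodes a secretory granule protein of neuroendocrine cells (chrX:48835611-48835860, minus strand), scored 1 and 0 in WT, 8 and 16 in the KO#2 pair and 8 and 16 in the KO#10 pair. LYPD1 (chr2:132671527-132671776, minus strand) scored 5 and 9 in WT, 24 and 44 in the KO#2 pair and 42 and 59 in the KO#10 pair. CLDN4, a tight junction claudin (chr7:73830746-73830995, plus strand), scored 20 and 30 in WT, 2 and 1 in the KO#2 pair and 6 and 3 in the KO#10 pair. In these 3 genes the KO and WT libraries did not overlap, and neither did they in TENT5B (chr1:27012851-27013100, minus strand), with 10 and 28 in WT against 2 to 4 in KO.
PCSK1N: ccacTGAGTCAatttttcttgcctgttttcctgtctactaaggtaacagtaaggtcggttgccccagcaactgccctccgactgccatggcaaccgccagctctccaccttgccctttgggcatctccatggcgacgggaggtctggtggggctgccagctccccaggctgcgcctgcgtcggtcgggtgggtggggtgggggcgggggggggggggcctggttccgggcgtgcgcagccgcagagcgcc
LYPD1: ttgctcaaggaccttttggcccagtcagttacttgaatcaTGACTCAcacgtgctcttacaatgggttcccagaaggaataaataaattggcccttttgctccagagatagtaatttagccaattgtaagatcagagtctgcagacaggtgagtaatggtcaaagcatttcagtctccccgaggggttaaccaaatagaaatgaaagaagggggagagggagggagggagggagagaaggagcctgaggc
CLDN4: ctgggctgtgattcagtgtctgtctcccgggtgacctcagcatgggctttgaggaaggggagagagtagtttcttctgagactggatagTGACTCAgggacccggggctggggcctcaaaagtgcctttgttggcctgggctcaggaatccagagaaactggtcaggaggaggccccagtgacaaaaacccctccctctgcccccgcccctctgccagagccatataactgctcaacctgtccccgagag
TENT5B: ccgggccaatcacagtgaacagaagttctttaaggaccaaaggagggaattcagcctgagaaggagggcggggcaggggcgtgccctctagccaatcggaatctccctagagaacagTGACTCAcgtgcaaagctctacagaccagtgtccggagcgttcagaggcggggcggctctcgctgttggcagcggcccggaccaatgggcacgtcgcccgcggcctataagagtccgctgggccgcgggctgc

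Forebrain patterning had the highest median of the 26 gene lists. Of the 27 tested genes of this list, 10 were called higher and none lower, and the median log2 fold change was 1.32, against 0.01 over all tested genes. WNT8B (chr10:100463009-100483744), a WNT ligand of the cortical hem, scored 1 and 7 in WT, 12 and 53 in KO#2, 77 in KO#10 replicate 1 and 46 in KO#10 replicate 2. Every KO library was above both WT libraries, and the library nearest WT overall was the highest of all (log2 fold change 3.32, SE 0.79, adjusted p = 0.0385). The study reports the other direction, a lower WNT8B, in KO thalamus organoids, a guided model that was not analysed here. DMRTA2 (chr1:50417550-50423443), a regulator of hem and cortex formation, scored 2 and 1 in WT, 14 and 30 in the KO#2 pair and 12 and 38 in the KO#10 pair (log2 fold change 3.17, SE 0.48, adjusted p = 0.0196). Its relative DMRT3 scored 1 and 2 in WT, 10 and 28 in the KO#2 pair and 20 and 30 in the KO#10 pair, with a change of 3.12. FEZF2, which specifies deep-layer neurons and the early rostral forebrain, scored 1 and 3 in WT, 11 and 23 in the KO#2 pair and 19 and 36 in the KO#10 pair (2.93). None of these 3 genes overlapped between KO and WT, a separation that 22.2% of all tested genes showed in this direction. LHX9 (2.22), OTX1 (1.82), BCL11A (1.79) and NR2F2 (1.14) were also called higher. EMX2OS, the antisense transcript of EMX2, scored 5 and 3 in WT, 15 and 55 in the KO#2 pair and 22 and 64 in the KO#10 pair (2.80, adjusted p = 0.0301). Whether the counting used the strand is not stated, so reads of EMX2 and EMX2OS cannot be told apart. The calls of BCL11A and NR2F2 were lost under 5 and 3 of the 9 other settings.

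Among the 10 called patterning genes KO#10 replicate 1 was mostly as far from WT as the other KO libraries, but its values had a part in those calls. Over all 27 tested genes of the list, its median log2 difference from WT was 0.78, against 1.77 in the other 3 KO libraries. Without KO#10 replicate 1, 15 genes of the list were called higher and 1 lower. The share retained, which is its log2 difference from the WT mean as a percent of the mean difference of the other 3 KO libraries, had a median of 97.2% over the 10 called genes, and 9 of the 10 were at least 2-fold higher than WT in that library. Over all 392 called higher genes the median was 67.3%. EOMES, a marker of intermediate progenitors that is also used in endoderm and was not called (adjusted p = 0.255), was close to WT in this library, with 1 and 7 in WT, 13 and 17 in KO#2, 2 in KO#10 replicate 1 and 19 in KO#10 replicate 2.

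Several genes of the roof plate and the WNT pathway were higher in KO#10 replicate 1 than in the other KO libraries. Of 11 tested choroid plexus and roof plate markers, 4 were called higher and 1 lower (median 0.52), and the 4 higher genes, WNT8B, RSPO1, WNT2B and FOXJ1, retained 118% to 143% in KO#10 replicate 1. RSPO2, of the patterning list (chr8:107899316-108083642), a secreted amplifier of WNT signalling, scored 6 and 7 in WT, 15 and 60 in KO#2, 142 in KO#10 replicate 1 and 67 in KO#10 replicate 2 (log2 fold change 2.89, SE 0.75, adjusted p = 0.0463). For RSPO2, too, the study reports a lower level in KO thalamus organoids. RSPO1, of the same family, scored 4 and 4 in WT, 11 and 27 in the KO#2 pair and 37 and 30 in the KO#10 pair (2.33, adjusted p = 0.0242). WNT2B scored 2 and 3 in WT, 9 and 12 in the KO#2 pair and 19 and 13 in the KO#10 pair (2.00, adjusted p = 0.0205), and the WNT receptor gene FZD1 scored 5 and 5 in WT, 11 and 10 in the KO#2 pair and 17 and 9 in the KO#10 pair (1.05, adjusted p = 0.0461). In each of these 4 genes the groups did not overlap and KO#10 replicate 1 was the highest library. FOXJ1, the master regulator of motile cilia, scored 2 and 3 in WT against 7 to 17 in KO (1.95). AQP1, a water channel of mature choroid plexus, was the called gene of the list that fell, from 33 and 21 in WT to 2 and 1 in KO#2, 12 in KO#10 replicate 1 and 1 in KO#10 replicate 2. TTR, a secreted protein of choroid plexus, which the study labels and the list leaves out, fell too, from 424 and 471 in WT to 22 and 35 in the KO#2 pair, 130 in KO#10 replicate 1 and 31 in KO#10 replicate 2 (-3.38, adjusted p = 0.0244). KCNJ13, another choroid plexus marker, did not fall and was not called. It scored 11 and 10 in WT, 11 and 8 in the KO#2 pair and 14 and 9 in the KO#10 pair. The markers FOLR1 and CLIC6 had no value, and a change in choroid plexus cells was not tested. Other genes that were further from WT in KO#10 replicate 1 than in the other KO libraries included TRPM3, a cation channel, with 9 and 7 in WT, 59 and 34 in KO#2, 118 in KO#10 replicate 1 and 40 in KO#10 replicate 2 (2.66, adjusted p = 0.0223, retained 162%), and TPBG, a glycoprotein that dampens WNT signalling, with 21 and 23 in WT, 43 and 71 in the KO#2 pair and 118 and 55 in the KO#10 pair (1.56, retained 184%). Of the calls above, that of RSPO2 was lost under 4 of the 9 other settings, including the replicate block (adjusted p = 0.0627), and those of AQP1, FZD1 and TPBG under at least 1.

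**Figure D1:**
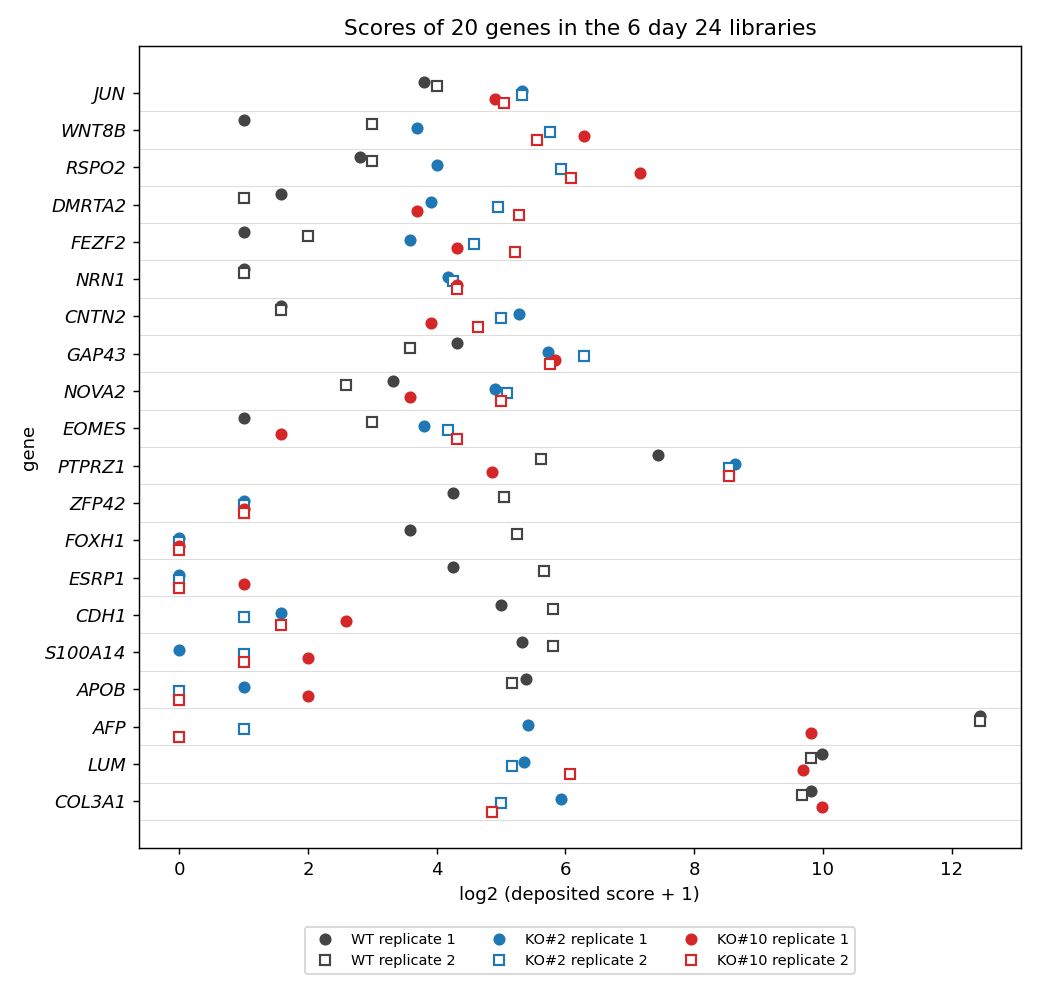
Scores of 20 genes in each of the 6 day 24 libraries, on log2 (score + 1). Grey symbols are WT, blue KO#2 and red KO#10, with filled circles for replicate 1 and open squares for replicate 2. KO#10 replicate 1 is the highest library for WNT8B and RSPO2, the lowest KO library for EOMES and PTPRZ1, and stands with WT for LUM and COL3A1.

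Among 34 tested genes of neural progenitors, 4 were called higher and none lower, with a median of 1.00. They were SOX1, a neuroectoderm transcription factor, HES6, a promoter of neuronal differentiation, MSI1, a progenitor RNA-binding protein, and TTYH1, a membrane protein of neural stem cells. HES6 scored 15 and 13 in WT, 50 and 50 in KO#2, 30 in KO#10 replicate 1 and 55 in KO#10 replicate 2 (log2 fold change 1.62, SE 0.25, adjusted p = 0.0196), and MSI1 scored 44 and 38 in WT, 112 and 139 in the KO#2 pair and 72 and 124 in the KO#10 pair (1.39, adjusted p = 0.0244). The groups did not overlap in either gene, and KO#10 replicate 1 lay between WT and the other KO libraries. These 4 genes retained 44.6% to 57.9% in that library, and without it 17 genes of the list were called higher and 1 lower. VIM, the intermediate filament of neuroepithelium and mesenchyme, had 316 and 354 in WT, 666 and 666 in the KO#2 pair and 748 and 550 in the KO#10 pair, just under the 2-fold limit (0.96, adjusted p = 0.0196). PTPRZ1, a phosphatase of radial glia, was the gene least like the other KO libraries in KO#10 replicate 1 among these, with 172 and 48 in WT, 395 and 370 in KO#2, 28 in KO#10 replicate 1 and 370 in KO#10 replicate 2 (1.11, adjusted p = 0.494). SOX1 and TTYH1 lost their calls under 2 of the 9 other settings.

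Neuronal adhesion molecules, which join axons and synapses, had the largest number of called genes among the neuronal lists. Of 33 tested genes, 12 were higher and none lower, and the median was 1.21. CNTN2 (chr1:205042937-205078289), an axonal contactin, scored 2 and 2 in WT, 38 and 31 in the KO#2 pair and 14 and 24 in the KO#10 pair (log2 fold change 3.12, SE 0.36, adjusted p = 0.0171). NCAM1 scored 18 and 6 in WT, 68 and 54 in the KO#2 pair and 27 and 50 in the KO#10 pair (2.06, adjusted p = 0.0353). ADGRL3, a latrophilin receptor of synapses, scored 22 and 15 in WT, 98 and 67 in KO#2, 136 in KO#10 replicate 1 and 48 in KO#10 replicate 2 (2.10, adjusted p = 0.0247). All 3 genes were higher in every KO library than in both WT libraries, but KO#10 replicate 1 was the lowest KO library for CNTN2 and NCAM1 and the highest for ADGRL3. CADM1, an immunoglobulin-like adhesion protein, was the most strongly expressed of those called, at 61 and 57 in WT, 237 and 212 in the KO#2 pair and 146 and 186 in the KO#10 pair (1.69, adjusted p = 0.0177). NFASC, NRXN2, CADM3, CHL1, NLGN3, PCDH9, LSAMP and TENM3 made up the rest, at 1.84 down to 1.04. The median share retained over the 12 genes was 71.1%, and 9 of the 12 were at least 2-fold higher in KO#10 replicate 1. CDH8 and CDH11, cadherins with the highest mean scores among the members not called, had changes of 1.21 and 0.48. Under at least 1 of the 9 other settings NRXN2, PCDH9, LSAMP and TENM3 were no longer called.

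Of 38 axon guidance genes, 7 were called higher and none lower, with a median of 0.83. SLIT1, a repellent ligand, scored 1 and 1 in WT, 9 and 10 in the KO#2 pair and 6 and 10 in the KO#10 pair (log2 fold change 2.26, SE 0.37, adjusted p = 0.0206). DCC, the netrin receptor, scored 13 and 8 in WT, 25 and 37 in the KO#2 pair and 22 and 39 in the KO#10 pair (1.46, adjusted p = 0.0277), and SEMA3C, a secreted semaphorin, scored 13 and 14 in WT, 20 and 61 in the KO#2 pair and 43 and 44 in the KO#10 pair (1.47, adjusted p = 0.0484). No KO library overlapped WT in these 3 genes, against 22.2% of all tested genes separated in this direction. Among the collapsin response mediators, which carry semaphorin signals to the cytoskeleton, DPYSL4 (1.40) and DPYSL2 (1.29) were called, and DPYSL3 was not, with 122 and 106 in WT, 186 and 212 in KO#2, 58 in KO#10 replicate 1 and 186 in KO#10 replicate 2. CRMP1, of the same family, was not called either, at 66 and 47 in WT, 134 and 142 in the KO#2 pair and 59 and 116 in the KO#10 pair. The call of SEMA3C was lost under 5 of the 9 other settings. At DCC the study reports reduced chromatin accessibility in KO thalamus organoids, another measure in another model, which was not analysed here.

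Among 37 tubulins and microtubule-associated genes, 8 rose, 1 fell and the median was 0.97. MAP1B, a microtubule-associated protein of growing axons, scored 67 and 45 in WT, 220 and 302 in KO#2, 107 in KO#10 replicate 1 and 279 in KO#10 replicate 2 (log2 fold change 1.92, SE 0.42, adjusted p = 0.0322). GAP43, a growth cone protein, scored 19 and 11 in WT, 52 and 77 in the KO#2 pair and 56 and 53 in the KO#10 pair (1.95, SE 0.25, adjusted p = 0.0181). NEFM, a neurofilament subunit, scored 7 and 12 in WT, 37 and 43 in the KO#2 pair and 46 and 24 in the KO#10 pair (1.88, adjusted p = 0.0206). For MAP1B KO#10 replicate 1 lay between WT and the other KO libraries, retaining 42.2%. For GAP43 and NEFM it was level with the other KO libraries, at 95.4% and 125%. TUBA1C, an alpha-tubulin of proliferating cells whose reads could be shared with near-identical paralogs, was the gene that fell, from 158 and 219 in WT to 35 and 54 in KO#2, 94 in KO#10 replicate 1 and 54 in KO#10 replicate 2 (-1.72, adjusted p = 0.0301). NEFM was not called with all 12 libraries in the fit.

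Many genes of synapses and channels were below the score limit at day 24. Of the listed genes with a score, 22 of 40 synaptic genes and 10 of 33 channels and receptors were tested, and 3 and 2 of them were called higher, with none lower in either list (medians 0.69 and 0.60). SYT4, a calcium sensor of dense-core vesicles, scored 6 and 9 in WT, 37 and 31 in the KO#2 pair and 51 and 21 in the KO#10 pair (log2 fold change 2.04, SE 0.33, adjusted p = 0.0206). CPLX2, a complexin of vesicle fusion, scored 3 and 1 in WT against 7 to 18 in KO (2.16). CACNG4, an AMPA receptor auxiliary subunit, scored 12 and 7 in WT, 32 and 48 in the KO#2 pair and 24 and 43 in the KO#10 pair (1.84, adjusted p = 0.0218), and the kainate receptor GRIK2 was at the 2-fold limit. In SYT4, KO#10 replicate 1 retained more than the full difference (143%). SYT1, the main calcium sensor of fast release, was not called, at 15 and 14 in WT, 40 and 40 in KO#2, 18 in KO#10 replicate 1 and 44 in KO#10 replicate 2 (1.16, adjusted p = 0.0615). GRIK2 was no longer called with a pseudocount of 5.

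NRN1 (chr6:5997999-6007605), a small membrane-anchored protein that promotes neurite growth, was the most even of the genes that rose. It scored 1 and 1 in WT, 17 and 18 in the KO#2 pair and 19 and 19 in the KO#10 pair, a log2 fold change of 3.27 (SE 0.19, adjusted p = 0.00222). The KO libraries were within 2 score units of each other and far from both WT libraries, and KO#10 replicate 1 retained 102%. Its scores at day 12 were 0 to 2 in all lines. PCSK1N, shown above, rose by 3.13 on the log2 scale (adjusted p = 0.0196), and its day 12 scores were 0 in all 6 libraries. DCT, an enzyme of melanin synthesis that is also expressed in forebrain progenitors, scored 2 and 2 in WT, 13 and 19 in the KO#2 pair and 26 and 39 in the KO#10 pair (2.97, adjusted p = 0.0184).

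RNA-binding proteins changed in both directions. Of 31 tested genes, 3 were higher and 4 lower (median 0.28). The higher genes were the neuronal splicing regulators NOVA2 and NOVA1 and the neuronal ELAV protein ELAVL4. NOVA2 scored 9 and 5 in WT, 29 and 33 in KO#2, 11 in KO#10 replicate 1 and 31 in KO#10 replicate 2 (log2 fold change 1.69, SE 0.45, adjusted p = 0.0489), and ELAVL4 scored 7 and 4 in WT, 27 and 37 in the KO#2 pair and 10 and 32 in the KO#10 pair (1.98, adjusted p = 0.0432). Both were only slightly above WT in KO#10 replicate 1, where the 3 genes retained 30.9% to 54%, and none reached a 2-fold difference. The lower genes were LIN28B and TRIM71, regulators of early developmental timing, the epithelial splicing regulator ESRP1, and MBNL3. LIN28B scored 62 and 78 in WT, 25 and 19 in the KO#2 pair and 28 and 21 in the KO#10 pair (-1.56, SE 0.19, adjusted p = 0.0181), and TRIM71 scored 34 and 50 in WT, 16 and 7 in the KO#2 pair and 10 and 6 in the KO#10 pair (-2.06, adjusted p = 0.0228). These 4 fell in every KO library and retained 77.9% to 92.3% in KO#10 replicate 1. NOVA2 kept its call under only 2 of the 9 other settings, and ELAVL4, ESRP1 and MBNL3 each lost theirs under 1.

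Of 19 tested pluripotency-associated genes, 12 were called lower and none higher, and the median was -2.14. ZFP42 (chr4:187995771-188005046), a zinc finger protein of pluripotent cells, scored 18 and 32 in WT and 1 in each of the 4 KO libraries (log2 fold change -3.65, SE 0.47, adjusted p = 0.0181). L1TD1, an RNA-binding protein of the same cells, scored 18 and 40 in WT, 1 and 2 in the KO#2 pair and 2 and 1 in the KO#10 pair (-3.51, adjusted p = 0.0184). DNMT3B, a de novo DNA methyltransferase, scored 51 and 100 in WT, 17 and 14 in the KO#2 pair and 13 and 14 in the KO#10 pair (-2.23, adjusted p = 0.0172). FOXH1, a partner of SMAD proteins in nodal signalling, scored 11 and 37 in WT and was listed at 0 in all 4 KO libraries (adjusted p = 0.0369). Here the WT libraries differed more from each other than the KO libraries did, and WT replicate 2 was the higher of the WT pair in each of these 4 genes. Level with the other KO libraries was KO#10 replicate 1, with a median share retained of 96.2% and all 12 genes at least 2-fold below WT. USP44, a deubiquitinase of stem cells, was lowest there, with 28 and 31 in WT, 7 and 7 in KO#2, 2 in KO#10 replicate 1 and 7 in KO#10 replicate 2 (-2.28, retained 173%). SEPHS1, a selenophosphate synthetase and the member not called with a high score, had 59 and 81 in WT and 67 to 92 in KO. FOXH1 was no longer called with a pseudocount of 0.1.

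**Figure D2:**
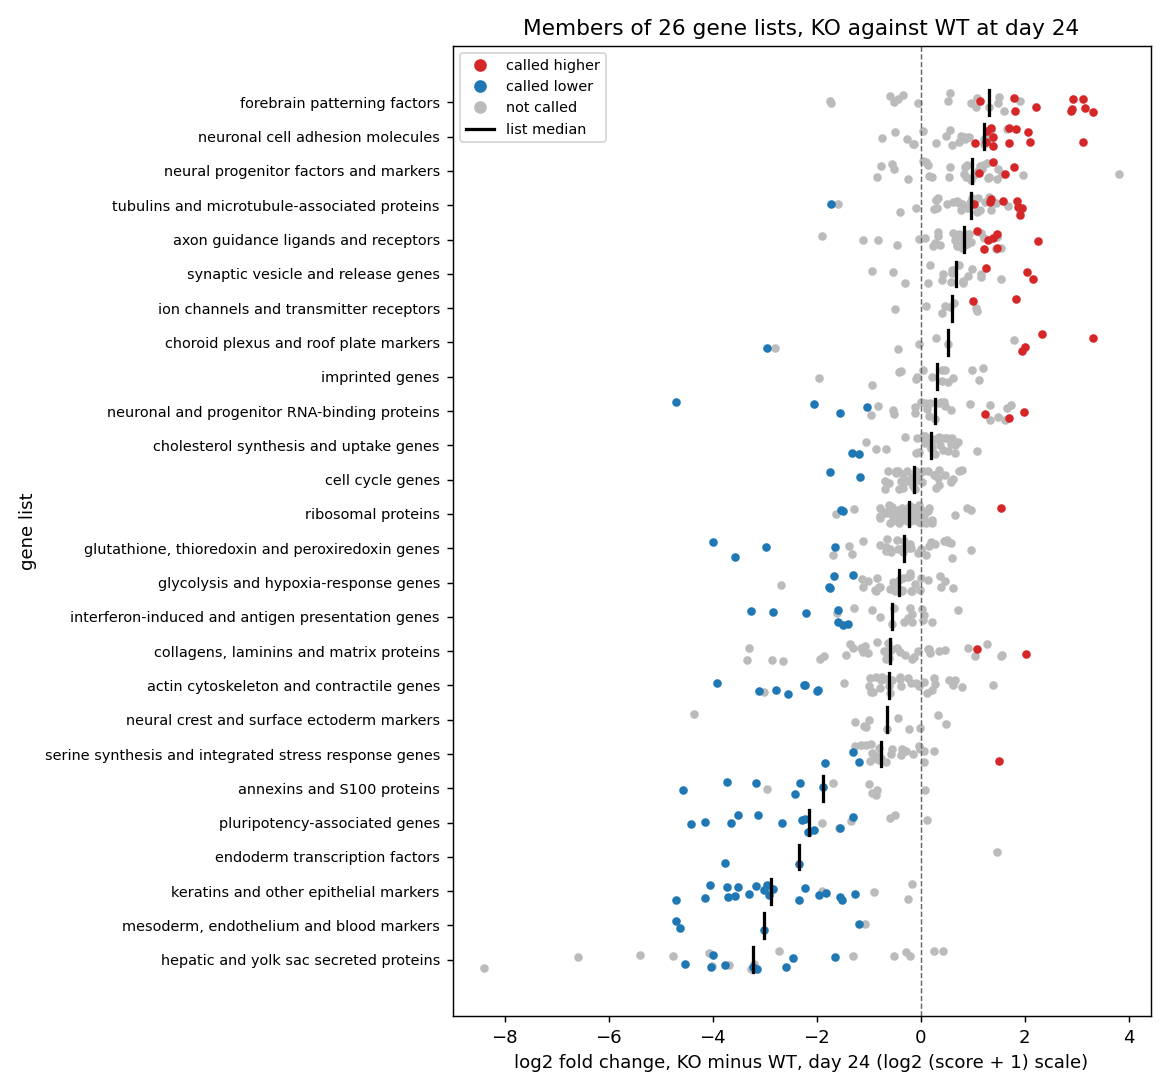
Log2 fold change of KO minus WT at day 24 for the tested members of 26 gene lists, ordered by the list median, where each point is a gene. Red points were called higher, blue points lower and grey points neither, and the black bar is the list median. The forebrain patterning list had the highest median, 1.32, and the hepatic and yolk sac list the lowest, -3.22.

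Epithelial genes fell together. Of 24 tested, 20 were called lower and none higher, all 24 had a negative change, and the median was -2.87. RAB25 (chr1:156061160-156070504), a small GTPase of epithelial recycling, scored 35 and 57 in WT, 2 and 3 in the KO#2 pair and 3 and 2 in the KO#10 pair (log2 fold change -3.72, SE 0.29, adjusted p = 0.00538), and its call held in 4 of the 6 fits with a library left out. CDH1 (chr16:68737292-68835537), the epithelial cadherin, scored 31 and 55 in WT, 2 and 1 in the KO#2 pair and 5 and 2 in the KO#10 pair (-3.71, SE 0.47, adjusted p = 0.0181). ESRP1 scored 18 and 50 in WT, 1 in KO#10 replicate 1 and 0 in the other 3 KO libraries (-4.71, adjusted p = 0.0206). The clathrin adaptor AP1M2 (-4.15), the protease inhibitor SPINT1 (-4.05), the protease PRSS8 (-3.57) and the claudins CLDN7 (-3.51) and CLDN4 (-2.83) fell as well. The simple keratins KRT8 and KRT18 were the most abundant members. KRT8 scored 250 and 316 in WT, 29 and 20 in KO#2, 122 in KO#10 replicate 1 and 24 in KO#10 replicate 2 (-2.92, adjusted p = 0.036), and KRT18 scored 139 and 178 in WT, 20 and 10 in the KO#2 pair and 62 and 11 in the KO#10 pair (-2.95, adjusted p = 0.0349). For the keratins KO#10 replicate 1 stood midway (34.3% and 38% retained) and close to the other KO libraries for RAB25 and AP1M2 (92.7% and 92.1%), and 16 of the 20 genes were at least 2-fold lower in it. CD24, a surface protein of both neural and epithelial cells, was not called and had 156 and 264 in WT against 112 to 236 in KO. The calls of ESRP1, AP1M2, SPINT1, PRSS8, CLDN7 and CLDN4 were each lost under 1 or 2 of the other settings.

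Annexins and S100 proteins, calcium-binding proteins of membranes and the cell cortex, had 7 of 14 tested genes called lower and none higher over both families. In the list, which leaves out S100A10, 6 of 13 were lower and the median was -1.88. S100A10 scored 126 and 124 in WT, 10 and 4 in the KO#2 pair, 47 in KO#10 replicate 1 and 6 in KO#10 replicate 2 (-3.43, adjusted p = 0.0385). S100A14 (chr1:153614255-153616986) scored 39 and 55 in WT, 0 and 1 in the KO#2 pair and 3 and 1 in the KO#10 pair (log2 fold change -4.56, SE 0.57, adjusted p = 0.0181), and ANXA3 scored 23 and 24 in WT, 0 and 1 in the KO#2 pair and 2 and 1 in the KO#10 pair (-3.72, adjusted p = 0.0206). ANXA1 scored 130 and 47 in WT, 7 and 6 in the KO#2 pair and 15 and 6 in the KO#10 pair (-3.16, adjusted p = 0.0196). S100A16 (-2.42), ANXA11 (-2.32) and S100A13 (-1.88) were also called. The abundant members behaved differently in KO#10 replicate 1. ANXA2 scored 192 and 186 in WT, 83 and 78 in KO#2, 200 in KO#10 replicate 1 and 73 in KO#10 replicate 2 (-0.93, adjusted p = 0.134), and S100A11 scored 87 and 106 in WT, 9 and 6 in KO#2, 58 in KO#10 replicate 1 and 5 in KO#10 replicate 2 (-2.95, adjusted p = 0.0592). Without that library, 12 of the list's genes were called lower. S100A6, at 16 and 14 in WT and 13 to 23 in KO, had a change of 0.08, and the actin-binding thymosin TMSB10, at 228 and 264 in WT and 192 to 250 in KO, had a change of -0.19. ANXA3 was no longer called with a filter of 20.

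Secreted proteins of liver and yolk sac had the lowest median of the lists, -3.22, with 9 of 25 tested genes called lower and none higher. APOB (chr2:21001429-21044073), the structural apolipoprotein of low-density lipoprotein, scored 41 and 35 in WT, 1 and 0 in the KO#2 pair and 3 and 0 in the KO#10 pair (log2 fold change -4.53, SE 0.68, adjusted p = 0.0196). APOC1 scored 85 and 80 in WT, 2 and 2 in KO#2, 18 in KO#10 replicate 1 and 3 in KO#10 replicate 2 (-4.03, adjusted p = 0.0235), and FGA, a fibrinogen chain, scored 40 and 29 in WT, 1 and 0 in KO#2, 11 in KO#10 replicate 1 and 0 in KO#10 replicate 2 (-3.99, adjusted p = 0.0448). KO#10 replicate 1 was the highest KO library in each of these genes, and the 9 called genes retained 32.2% to 66.3% in it. AFP, the fetal albumin of yolk sac and liver, had the top score of 5585 in each WT library, 42 and 1 in the KO#2 pair, 902 in KO#10 replicate 1 and 0 in KO#10 replicate 2. The KO libraries spread so widely that it was not called (adjusted p = 0.0636), and it was called without KO#10 replicate 1 (adjusted p = 0.00894). FGB was not called for the same spread, with 750 and 426 in WT, 10 and 0 in the KO#2 pair and 112 and 0 in the KO#10 pair. HNF4A, a transcription factor of liver and gut, scored 17 and 17 in WT, 2 in KO#10 replicate 1 and 0 in the other 3 KO libraries (-3.77, adjusted p = 0.0382). Of 28 listed endoderm transcription factors, 6 had a score and 3 were tested, and 2 of the 3, HNF4A and the epithelial factor ELF3 (-2.33), were lower. Both passed the score limit through WT alone, which fixed their direction. At day 12 the apolipoproteins APOB and APOA4 and the fibrinogen FGA were listed at 0 in every library. Under 1 to 3 of the other settings the calls of APOB, FGA, HNF4A and APOA4 were lost.

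Of 27 listed markers of mesoderm, endothelium and blood, 6 had a score, 5 were tested and 4 called lower (median -3.01). HBE1, HBG2 and KDR were below 10 in every KO library and passed the score limit through WT alone, which fixed their direction. HBE1, the embryonic beta-like globin, scored 31 and 29 in WT, 1 in KO#10 replicate 1 and 0 in the other 3 KO libraries (log2 fold change -4.70, adjusted p = 0.0196), and HBG2, a fetal globin, scored 31 and 18 in WT and was listed at 0 in all 4 KO libraries (adjusted p = 0.0265). Reads of HBG2 could be shared with the near-identical HBG1. KDR, a VEGF receptor of endothelium, scored 24 and 21 in WT, 1 and 1 in KO#2, 8 in KO#10 replicate 1 and 1 in KO#10 replicate 2 (-3.01, adjusted p = 0.0357), and EGFL7, secreted by endothelium, fell less, from 30 and 30 to 9 to 21 (-1.19). PDGFRA, a receptor of mesenchyme, was not called because KO#10 replicate 1 had 27, above the WT scores of 14 and 13, while the other 3 KO libraries had 3 to 4. EGFL7 lost its call under 5 of the 9 other settings, and HBE1, HBG2 and KDR under 1 or 2.

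Actin-related genes included 8 called lower of 39 tested and none called higher, with a median of -0.61. ACTC1, the cardiac alpha-actin, scored 29 and 23 in WT, 3 and 3 in the KO#2 pair and 2 and 1 in the KO#10 pair (log2 fold change -3.10, SE 0.39, adjusted p = 0.0181), and PDLIM1, a linker of actin fibres, scored 41 and 75 in WT, 6 and 9 in the KO#2 pair and 9 and 11 in the KO#10 pair (-2.56, SE 0.29, adjusted p = 0.0165). Both were as low in KO#10 replicate 1 as in the other KO libraries. ACTA2, the smooth muscle alpha-actin, scored 44 and 27 in WT, 2 and 3 in KO#2, 14 in KO#10 replicate 1 and 3 in KO#10 replicate 2 (-2.78, adjusted p = 0.0353). LCP1 (-3.91), FLNC (-2.25), CAPG (-2.22), GSN (-2.0) and MYL9 (-1.97) completed the 8. The cytoplasmic actin ACTG1 was not called and scored 666 and 902 in WT and 1203 in each KO library (0.63, adjusted p = 0.0328), a step between 2 of the fixed top levels of these scores that is below the 2-fold limit. LCP1 and MYL9 were no longer called under 2 and 3 of the other settings.

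Matrix genes were a group in which KO#10 replicate 1 stood far from the other KO libraries. The 39 tested collagens, laminins and matrix proteins summed to 3785 and 3321 in WT, 1229 and 1380 in KO#2, 4709 in KO#10 replicate 1 and 1236 in KO#10 replicate 2. LUM (chr12:91102629-91111494), a proteoglycan of connective tissue, scored 1009 and 903 in WT, 40 and 35 in KO#2, 822 in KO#10 replicate 1 and 66 in KO#10 replicate 2 (log2 fold change -3.33, SE 1.2, adjusted p = 0.0924). COL3A1 (chr2:188974373-189012746) scored 903 and 821 in WT, 60 and 31 in KO#2, 1009 in KO#10 replicate 1 and 28 in KO#10 replicate 2 (-3.31, SE 1.36, adjusted p = 0.124). COL1A2 scored 167 and 88 in WT, 24 and 40 in KO#2, 370 in KO#10 replicate 1 and 29 in KO#10 replicate 2 (-1.07, adjusted p = 0.476). In the first gene KO#10 replicate 1 was near WT, and in the other 2 it was above both WT libraries. None of the 39 was called lower with all libraries, and 15 were without KO#10 replicate 1, when LUM had a change of -4.37 (adjusted p = 0.00228) and COL3A1 of -4.49 (adjusted p = 0.00284). HAND1, a factor of lateral mesoderm and extraembryonic tissue, and BMP4, a ligand of the same tissues and of the roof plate, followed this order, at 70 and 67 and at 50 and 43 in WT, 25 and 35 in KO#10 replicate 1, and 0 to 4 in the other 3 KO libraries. ITGB8, an integrin subunit of neuroepithelium that activates TGF-beta, and COL11A1 were called higher. They were 5.13% of the tested genes of the list, near the 4.22% of all tested genes. ITGB8 scored 4 and 2 in WT, 23 and 17 in the KO#2 pair and 7 and 17 in the KO#10 pair (2.03, adjusted p = 0.0343), and COL11A1 scored 15 and 10 in WT against 22 to 33 in KO (1.08, adjusted p = 0.0277). ITGB8 was no longer called with the replicate block and COL11A1 with a pseudocount of 5.

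**Figure D3:**
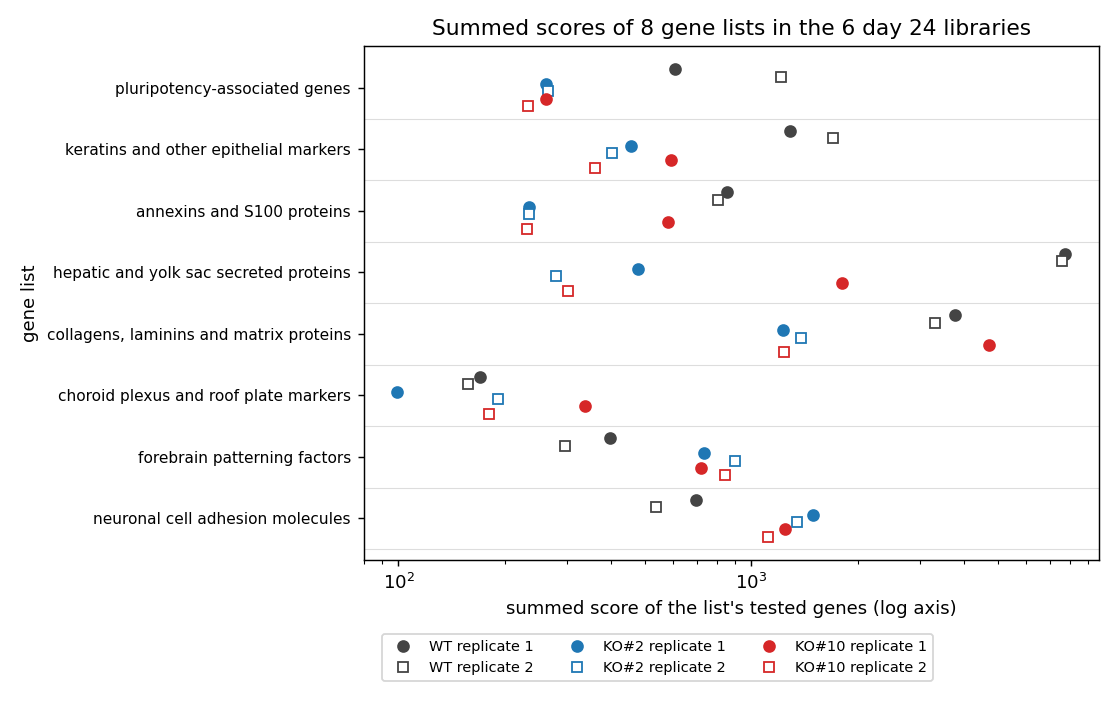
Summed scores of the tested genes of 8 lists in each day 24 library, on a log axis, with grey symbols for WT, blue for KO#2 and red for KO#10, filled circles for replicate 1 and open squares for replicate 2. KO#10 replicate 1 lies with the KO libraries for pluripotency genes, between the groups for hepatic and yolk sac proteins, and above WT for matrix proteins, at 4709.

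Interferon-induced and antigen presentation genes included 7 called lower of 23 tested and none called higher (median -0.55). BST2, a membrane tether of viral particles, scored 87 and 92 in WT, 7 and 7 in KO#2, 23 in KO#10 replicate 1 and 4 in KO#10 replicate 2 (log2 fold change -3.27, SE 0.55, adjusted p = 0.0215). IFITM1, which is also abundant in stem cells, scored 62 and 124 in WT, 9 and 10 in the KO#2 pair and 23 and 8 in the KO#10 pair (-2.84, adjusted p = 0.0201), and the ubiquitin-like ISG15 scored 25 and 27 in WT against 3 to 7 in KO (-2.21, adjusted p = 0.0184). The groups were separate in all 3, as they were in this direction in 21.8% of all tested genes. The class I heavy chains HLA-B (-1.58), HLA-C (-1.5) and HLA-E (-1.39) and CD55 (-1.58), a complement regulator, fell, though reads of the HLA genes could be shared. HLA-B had 42 and 47 in WT and 10 to 18 in KO at day 24, but 16 and 19 in WT and 28 to 41 in KO at day 12, where it was not called (0.94, adjusted p = 0.108). Their light chain B2M, at 133 and 112 in WT, 62 and 55 in the KO#2 pair and 94 and 51 in the KO#10 pair, was not called (-0.93, adjusted p = 0.0501).

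In 3 metabolic lists 10.3% to 11.4% of the tested genes fell, against 3.79% of all genes. Of 37 glutathione, thioredoxin and peroxiredoxin genes, 4 fell (10.8%) and none rose (median -0.32), of which SELENOP, the plasma selenium carrier, scored 49 and 86 in WT, 11 and 3 in the KO#2 pair and 20 and 4 in the KO#10 pair (log2 fold change -2.97, adjusted p = 0.0344). The near-identical glutathione transferases GSTA2 (-3.99) and GSTA1 (-3.57) and MGST2 (-1.64) were the others. The abundant PRDX1 had 278 and 316 in WT and 206 to 236 in KO (-0.43, adjusted p = 0.0566). Of 35 glycolysis and hypoxia-response genes, 4 fell (11.4%) and 30 had a negative change (median -0.41), and P4HA1, a collagen prolyl hydroxylase induced by hypoxia, scored 107 and 108 in WT, 18 and 29 in the KO#2 pair and 50 and 34 in the KO#10 pair (-1.77, adjusted p = 0.0273). The other 3 were NDRG1 (-1.74), PFKP (-1.67) and the lactate exporter SLC16A3 (-1.31), while GAPDH had 902 and 1008 in WT and 820 to 902 in KO (-0.11). Of 29 genes of serine synthesis and the integrated stress response, 3 fell (10.3%) and 1 rose (median -0.76). DDIT3, the stress-induced factor CHOP, scored 30 and 64 in WT, 12 and 9 in the KO#2 pair and 15 and 11 in the KO#10 pair (-1.84, adjusted p = 0.0218). MTHFD2 (-1.30) and the arginine transporter SLC7A3 (-1.19) fell too, and the neutral amino acid transporter SLC1A4 (1.51) rose. ATF4, the factor upstream of DDIT3, had 104 and 108 in WT and 90 to 136 in KO (-0.01). Of 32 cholesterol genes, NPC2 (-1.32) and SC5D (-1.18) fell, 6.25% of the list, and the median was 0.20. GSTA2, GSTA1, MGST2, SLC7A3 and SLC1A4 lost their calls under 1 to 3 of the other settings.

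Of the cell cycle genes 4.88% fell and of the ribosomal proteins 2.56%, against 3.79% of all genes. Of 41 cell cycle genes, 2 were lower and none higher (median -0.13), namely CDKN1A, the p21 inhibitor of cyclin-dependent kinases, with 35 and 54 in WT and 6 to 17 in KO (-1.75, adjusted p = 0.0345), and CCNE1, cyclin E, with 18 and 20 in WT and 6 to 10 in KO (-1.17, adjusted p = 0.0235). PCNA had 162 and 146 in WT and 206 to 220 in KO, a difference under 2-fold (0.46, adjusted p = 0.0407). Of 78 ribosomal proteins, 2 were lower and 1 higher (median -0.22). The 2 lower were RPL22L1, at 46 and 53 in WT and 13 to 21 in KO (-1.53, adjusted p = 0.0195), and RPL39L, at 33 and 60 in WT and 11 to 19 in KO (-1.49, adjusted p = 0.0259), both of them paralogs of core ribosomal proteins. RPL10 was at the top score of 5585 in all KO libraries and at 3043 and 1203 in WT, which is a step between the highest levels of these scores. None of 16 imprinted genes and none of 11 neural crest and surface ectoderm markers was called by limma (medians 0.31 and -0.64). At an unadjusted p under 0.05, 6 imprinted genes were higher and 3 lower, and 0 and 2 of the markers. Without KO#10 replicate 1 the first list had 2 called higher and the second 4 called lower. CCNE1 was no longer called with a pseudocount of 5 and RPL10 with all 12 libraries in the fit.

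By gene type, 4.00% of the 9102 tested protein-coding genes were higher and 3.77% lower. The 72 long intergenic RNAs had 12 higher (16.7%) and 7 lower (9.72%). The 55 antisense RNAs had 10 higher (18.2%) and 2 lower (3.64%), and the 42 processed transcripts 5 higher (11.9%) and none lower. MIR9-1HG (chr1:156404250-156456763), a host gene of the neural microRNA miR-9 that is annotated as protein-coding, scored 8 and 10 in WT, 61 and 167 in KO#2, 33 in KO#10 replicate 1 and 172 in KO#10 replicate 2 (log2 fold change 3.15, SE 0.66, adjusted p = 0.0306). LINC00678, a transcript of pluripotent cells, scored 12 and 47 in WT and 0 to 1 in KO (-4.14, adjusted p = 0.027). The protein-coding KIAA1328 and the long intergenic LINC00506 were already abundant in all lines at day 12 and were called higher at day 24. KIAA1328 had 750 to 1009 at day 12 in all 6 libraries and 35 and 23 in WT, 668 and 250 in the KO#2 pair and 126 and 142 in the KO#10 pair at day 24 (3.00, adjusted p = 0.0315), and LINC00506 had 473 to 902 at day 12 and 21 and 19 in WT, 472 and 128 in the KO#2 pair and 67 and 86 in the KO#10 pair at day 24. In both genes KO#2 replicate 1 was the highest day 24 library. The call of LINC00506 was lost under 4 of the 9 other settings and that of LINC00678 under 1.

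KO#10 replicate 1 lay beyond both WT libraries, in the direction of the call, for all 392 higher and all 352 lower genes, which a call over 4 libraries with this spread makes likely and which therefore is a description. In it, 229 of the higher genes (58.4%) and 235 of the lower genes (66.8%) were at least 2-fold from the WT mean, with a median share retained of 67.3% and 65.6%. Its values had no part in the calls made without it, which numbered 722 higher (7.86% of 9180 tested) and 624 lower (6.8%), 14.7% in all. Of these, KO#10 replicate 1 was beyond both WT libraries in 586 (81.2%) and 543 (87%), against 62.5% and 61% of all tested genes that were higher or lower in the other 3 KO libraries. It reached a 2-fold difference in 233 (32.3%) and 257 (41.2%), against 7.24% and 7.3%. Both sides of this comparison use the same WT libraries, and no test was made. By family, the share retained by the called genes had a median of 143% in the 3 synaptic genes, 138% in the roof plate markers that rose, 97.2% in forebrain patterning and 96.2% in pluripotency genes, was 71.1% in neuronal adhesion and 62.5% in epithelial genes, and was 46.6% in the hepatic and yolk sac proteins, 39.9% in the glutathione genes and 33.7% in the 3 neuronal RNA-binding proteins. These genes were called with KO#10 replicate 1 in the fit, so this is not an order of whole lists. Over all tested synaptic genes, its median log2 difference from WT was 0.27, against 0.82 in the other 3 KO libraries. For patterning these medians were 0.78 and 1.77, for choroid plexus and roof plate markers 1.19 and 0.30, and for pluripotency genes -1.94 and -2.11.

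**Figure D4:**
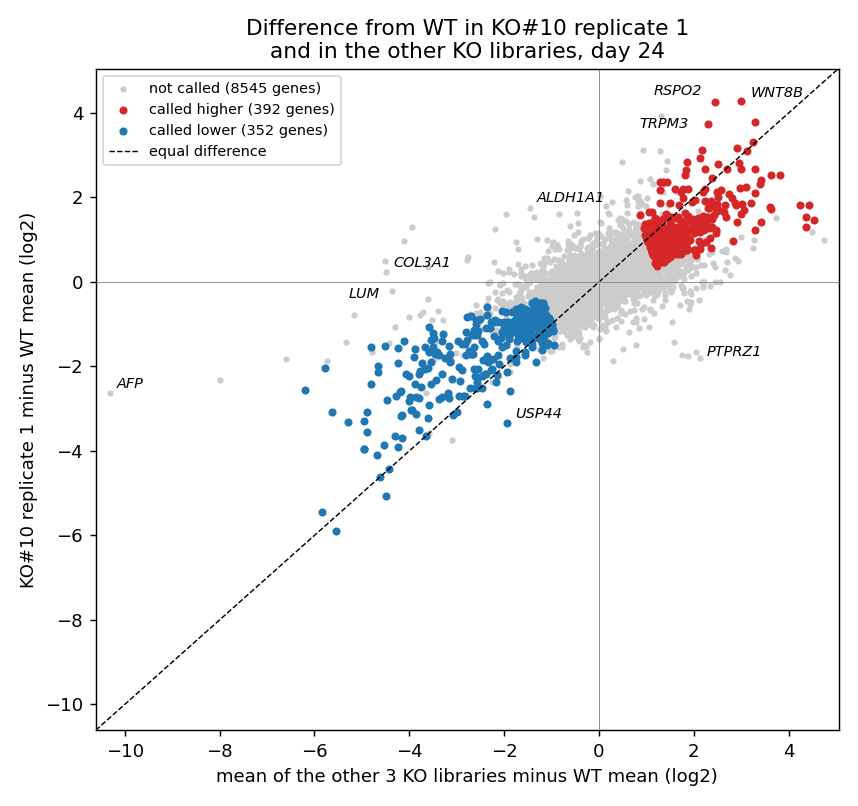
Difference from the WT mean in KO#10 replicate 1 (vertical axis) against the mean difference of the other 3 KO libraries (horizontal axis) for 9289 genes at day 24, both on log2 (score + 1). The dashed line marks equal differences. Called genes (392 red, 352 blue) lie mostly between this line and zero, while RSPO2, WNT8B, TRPM3 and USP44 lie beyond it and PTPRZ1, COL3A1 and ALDH1A1 on the opposite side of zero.

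The genes called without KO#10 replicate 1 that were least retained in it lay on the other side of WT there. Apart from PTPRZ1 and COL1A2, they included ALDH1A1, a retinoic acid synthesis enzyme, with 25 and 32 in WT, 10 and 10 in KO#2, 98 in KO#10 replicate 1 and 9 in KO#10 replicate 2, the collagen COL5A2 with 23 and 22 in WT, 8 and 12 in KO#2, 38 in KO#10 replicate 1 and 11 in KO#10 replicate 2, and the low-scoring GDAP1L1, PGM2L1 and PWRN1, at 1 to 5 in KO#10 replicate 1 and 9 to 30 in the other 3 KO libraries. With all 6 libraries none of them was called.

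Each clone was also set against WT in a fit with 3 groups. Against WT, 442 genes (4.76% of 9289) rose in KO#2 and 397 (4.27%) fell, 9.03% in all, while 13 (0.14%) rose in KO#10 and 13 (0.14%) fell, 0.28% in all. Both comparisons share the WT libraries, and the 2 KO#10 libraries were the pair of a line that lay furthest apart. The median change of the 392 higher genes was 1.5 in KO#2 and 1.24 in KO#10, and that of the 352 lower genes was -1.85 and -1.5. For NRN1 the KO#2 change was 3.21 (adjusted p = 0.0214) and the KO#10 change 3.32 (adjusted p = 0.0401), and for CNTN2 they were 3.56 (adjusted p = 0.0214) and 2.69 (adjusted p = 0.0442). No gene was called in KO#10 with the replicate block or with any library left out, so that these KO#10 calls were lost there. For WNT8B the changes were 2.73 and 3.92, and for CDH1 every KO library was at 5 or lower. The direct comparison of KO#2 with KO#10 called no gene by limma at an adjusted p under 0.05, with 479 genes at an unadjusted p under 0.05.

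At day 12, 2 genes (0.0225% of 8885 tested) rose and 6 (0.0675%) fell in KO, 0.09% in all. Of the day 24 genes tested on both days, 243 of 295 higher genes (82.4%) had a positive and 170 of 249 lower genes (68.3%) a negative change at day 12, against 61.9% of all 8297 genes tested on both days with the same sign. The medians of these day 12 changes were 0.26 and -0.20. None of 19 patterning genes tested at day 12 was called by limma, and their median change was 0.25. At an unadjusted p under 0.05, 6 of them were higher and 1 lower. DMRTA2 scored 0 and 1 in WT, 8 and 10 in the KO#2 pair and 3 and 10 in the KO#10 pair (log2 fold change 2.52, adjusted p = 0.212), and FEZF2 scored 1 and 4 in WT, 11 and 22 in the KO#2 pair and 6 and 18 in the KO#10 pair (2.13, adjusted p = 0.20). Of 18 pluripotency genes tested at day 12, 1 was called lower and the median was -0.79. ZFP42 was not called, at 32 and 21 in WT, 4 and 8 in the KO#2 pair and 5 and 9 in the KO#10 pair (-1.90, adjusted p = 0.102). ESRP1 scored 13 and 19 in WT and 1 to 3 in KO on that day (-2.42, adjusted p = 0.128). KRT8 did not separate at day 12, at 82 and 91 in WT and 77 to 114 in KO (0.14), and MAP1B had 53 and 80 in WT and 53 to 124 in KO (0.35).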

How the data were processed

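RNA of 6 day 24 libraries, and of 6 day 12 libraries for reference, was compared by line. The authors deposited, for each library, whole-number scores per gene that had been normalised before deposit. They are not read counts, since every library shares the median, the highest score and most of its score levels, and how they were normalised is not given in the sources used here. The submitters' processing notes name bcl2fastq, Bowtie2, RSEM and, for these human cells, the mouse build mm10. All 10976 gene identifiers were found in GENCODE 29. The study states that its experiments used several batches, but not which batch each library came from, so that p-values measure only the spread between these libraries.

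Scores were taken as log2 (score + 1), genes that reached a score of 10 in 2 or more of the 6 libraries were kept, and KO was compared with WT with limma 3.58.1 in R 4.3.3 with a trend of the variance on the mean. The Benjamini-Hochberg adjustment ran over all genes tested, and calls required an adjusted p under 0.05 with a log2 change of 1 or more in either direction. The fit was tested on simulated data. Exact permutation tests of single genes were not used, since 2 against 4 libraries cannot give a two-sided p below 0.0667. Adjusted p-values in the text without a named tool are from this fit, and values in parentheses after a gene without a label are log2 fold changes. Summaries used pandas 2.3.3 in Python 3.11.15, and plots used matplotlib 3.10.9. Promoters were taken from RefSeq.

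The members and gene lists were chosen with earlier results of these data known, so that no list is independent evidence of its direction. Genes labelled in the study's day 24 heat map or volcano plot, or described before, were left out of naming and of the lists, except JUN and where a family or marker count needed one. Genes the study shows only in other experiments, such as CNTN2, DCC, RSPO2 and WNT8B, were kept. In KO thalamus organoids the study reports lower WNT8B and RSPO2 RNA and less accessible chromatin at DCC, opposite in direction to the RNA changes here. The others were named as the 15 called genes with the largest rise and the 15 with the largest fall at a mean score of at least 10 in the higher group, the 8 most abundant called genes of each direction, for each list the 5 called members with the largest change and the 2 most abundant members not called, the 8 most and the 8 least retained genes in KO#10 replicate 1, the S100, annexin and thymosin families, and other list members where their role needed it. Only part of the genes so selected is printed, and a few are not reported here. Alternatives were other filters, pseudocounts and variance settings, centring, the replicate number as a block, clones as separate groups, all 12 libraries in the fit, unadjusted p-values and each library left out.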

Additional observations from a re-analysis of the deposited data

Results flagged for a closer look

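Among the 4 KO libraries at day 24, a library far from the other 3 by Dixon's criterion was found in 31 of 190 genes. For continuous values chance gives about 1 in 20 groups, but in 16 of the 31 the other 3 scores were tied, which fixes the ratio at its maximum, and some of the genes had been chosen for their value in KO#10 replicate 1, so that this rate does not hold here. In 27 of the 31 it was KO#10 replicate 1. Of the genes lower in KO, this library was the highest KO library for ESRP1, HBE1, GRB7 and LCP1 (1 against 0 in the other 3), HNF4A (2 against 0), APOA4 (7 against 0), AGT (5 against 1), KDR (8 against 1), ANXA11 (7 against 2), ANXA1 (15 against 6 to 7), APOC1 (18 against 2 to 3) and APOE (58 against 16 to 20). Among genes not called, it was the highest for JUP (36 against 29 to 30), PDGFRA (27 against 3 to 4), ALDH1A1 (98 against 9 to 10) and ANXA2 (200 against 73 to 83).

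The same library was the lowest for the neural genes SOX1 (6 against 11 to 12), HES6 (30 against 50 to 55), PTPRZ1 (28 against 370 to 395), DPYSL3 (58 against 186 to 212), SYT1 (18 against 40 to 44) and NOVA2 (11 against 29 to 33), and for PWRN1 (1 against 9 to 12) and USP44 (2 against 7). It was also the lowest for GAPDH (820 against 902), RPS3A (3048 against 5585) and the thymosin TMSB4X (1202 against 5585), which are steps between the fixed top levels of the scores. In the other 4 genes another library stood apart, KO#2 replicate 2 for ELF3 (1 against 2), KO#2 replicate 1 for PHGDH (82 against 149 to 167) and RPL41 (1202 against 5585), and KO#10 replicate 2 for GNAS (472 against 507).

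In 4 genes every KO library lay on opposite sides of WT on the 2 days. HLA-B changed by 0.94 on the log2 scale at day 12 and by -1.58 at day 24, the interferon-induced IFITM3 by 0.65 and -1.60, B2M by 0.32 and -0.93, and CDKN1A by 0.95 and -1.75. The difference between days was not tested.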

How the results depend on the processing

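With 1 library left out, the day 24 counts ranged from 1 to 722 genes higher and from 1 to 624 lower, the KO#2 comparison from 0 to 841 (839 with all, and at most 2 where a WT or KO#2 library was left out), the KO#10 comparison was at 0 in each case (26 with all), and day 12 ranged from 1 to 4 (8 with all). Fits with fewer libraries have fewer degrees of freedom, and leaving out KO#10 replicate 1 raised the day 24 counts. Other settings moved some counts by over 1.5 times. A pseudocount of 5 gave 235 higher genes and 46 genes in KO#10. A filter of 20 gave 205 lower genes, with fewer genes tested. Without a trend of the variance 51 genes were called in KO#10 and 16 at day 12, and without a filter 3 were called at day 12. The cause of these shifts was not tested. At a limit of 0.5 in place of 1, KO#10 replicate 1 held 387 of the higher genes, and at 1.5 it held 95 higher and 127 lower genes.

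Replicate numbers are shared by the groups in the labels. Deviations of same-numbered libraries correlated across 9289 genes at r = 0.212 between WT and KO#2, at -0.106 between WT and KO#10, and at 0.346 between the clones. Same-numbered libraries thus deviated together in part, most between the clones, whose replicate 2 libraries were the closest pair of all. Between WT and KO#10 they did not. With the replicate number as a block, 332 genes were higher and 329 lower at day 24, 523 were called in KO#2, 0 in KO#10 and 71 at day 12. Of 194 genes examined singly, 173 kept their status, called or not called, under the block, 194 with libraries centred and 157 without KO#10 replicate 1. Genes called in neither fit count as kept, so these are not numbers of calls that held. Without either WT library most calls were lost, as given above. The direction of a called gene can hardly change in these fits, since the groups did not overlap. As an alternative call, unadjusted p-values were run for the day 24 counts and not for the named genes or the lists with calls. Depth is unknown, and scores near 0 depend on the pseudocount.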
